A study of Arabidopsis thaliana with 8 samples.

Results

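The Arabidopsis thaliana line KO-30 was compared with the reference accession Col-0 by setting the 1 array of the line against the mean of the 2 Col-0 arrays, titled Col-0-L and Col-0-S, which makes 3 arrays of the 8 in the series. KO-30 is given in the labels as a WRKY T-DNA knockout, that is, a plant in which a piece of transferred bacterial DNA sits in a WRKY gene. Col-0 is the accession without such an insertion. The sampled tissue in both groups was the whole rosette, without stem and flowers, of plants 35 days old that had just begun to bolt. All plants grew in a chamber at 70% humidity at 22 °C in the light and 19 °C in the dark, with 14 h of light and 8 h of dark, on a substrate that had received the insecticide imidacloprid and a slow-release fertiliser. The labels do not give the disrupted gene or the allele of KO-30, how many plants went into an array, or what L and S stand for. The disrupted gene's level could therefore not be read as a check of the label.

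WRKY proteins are plant DNA-binding regulators that recognise the W box, a short promoter element. The group II-A members named in the series title are known as regulators of responses to pathogens and of leaf ageing, acting together with salicylic acid and jasmonate signalling. In a rosette whose plant is beginning to bolt, photosynthesis genes are highly active in most leaves, while the oldest leaves start to recycle their contents.

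Signals came from the ATH1 array, on which a probe set is a group of short oligonucleotides for 1 transcript, and 22746 probe sets remained without the controls. Of these, 15922 lay above a filter on low signal. Differences are given on the scale log2(signal + 5), where a difference of 1 is a 2-fold change of the signal plus 5, and this scale understates the change of dim probe sets. A probe set was counted as shifted when KO-30 lay at least 2-fold from the Col-0 mean and the distance was also larger than that between the 2 Col-0 arrays. With 1 array of the line, these counts are descriptions without a test. A lower signal from a whole rosette can come from fewer cells of a type or from less RNA per cell, which cannot be told apart here.

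Few probe sets were shifted in KO-30. Of all 22746 probe sets, 76 were shifted to higher signal (0.334%) and 192 to lower signal (0.844%), 1.18% together. Above the filter, 13 probe sets were higher in KO-30 (0.0816%) and 61 lower (0.383%), 0.465% together. The split between higher and lower depended on the scaling: over all probe sets it was 120 higher and 129 lower after quantile normalization and 111 higher and 138 lower after centring each array on its median, and above the filter 18 and 36, and 20 and 39. Median signal was 35.98 on the KO-30 array and between 37.19 and 39.15 on the other 7, and the median difference between KO-30 and Col-0 was -0.03 over the probe sets above the filter.

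Array against array, with no condition on the pair, KO-30 lay nearer to one Col-0 array than to the other. Above the filter it differed at least 2-fold from Col-0-S for 83 probe sets (0.521%) and from Col-0-L for 218 (1.37%), and the 2 Col-0 arrays differed that much from each other for 128 (0.804%). Over all probe sets the counts were 461 (2.03%), 751 (3.3%) and 651 (2.86%). The distance between the Col-0 arrays thus lay between the 2 distances of KO-30. Its log2 signals above the filter correlated with r = 0.984 with Col-0-S and with r = 0.977 with Col-0-L, and the 2 Col-0 arrays correlated with r = 0.984; these are descriptions over shared probe sets. Counted above the filter by the same rule as KO-30 and against the same Col-0 mean, the other lines had 18 probe sets higher and 38 lower in KO-02, 30 and 17 in KO-07, 85 and 153 in KO-54, 165 and 44 in KO-40 and 42 and 89 in KO-56. All of these comparisons share the Col-0 arrays.

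**Figure D1:**
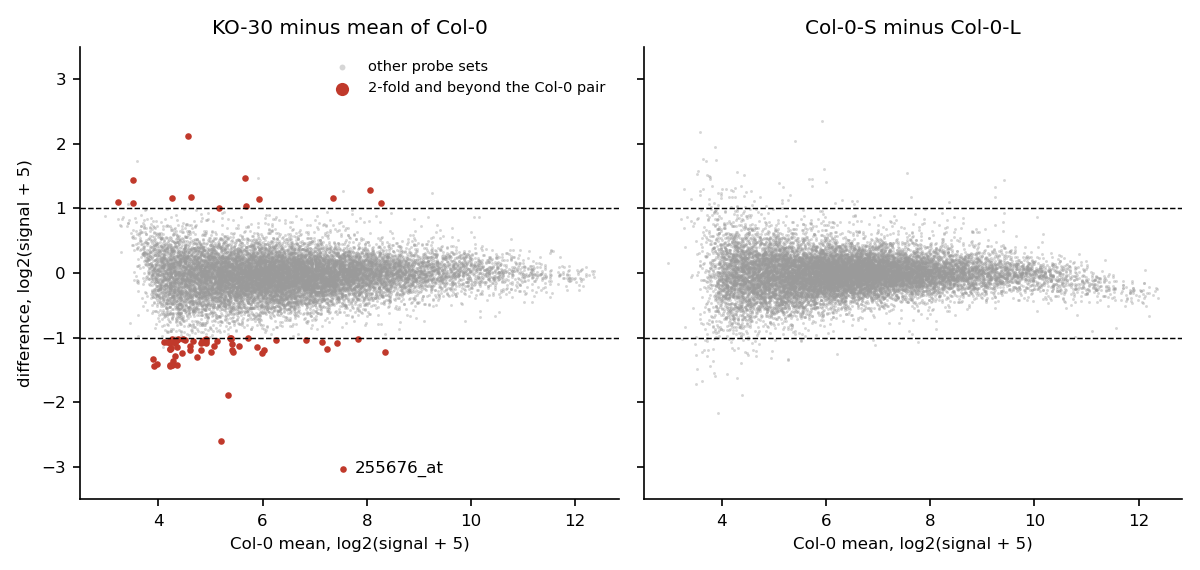
Each point is 1 of the 15922 probe sets above the filter, with its mean Col-0 level on the x axis and a difference on the y axis, both on the log2(signal + 5) scale; the left panel shows KO-30 minus the Col-0 mean and the right panel Col-0-S minus Col-0-L. The 74 red points are the shifted probe sets, and dashed lines mark 2-fold. Probe set 255676_at is the lowest at -3.04, and 248412_at follows at -2.60.

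The largest fall above the filter was on probe set 255676_at. Its signal was 17.6 in KO-30, against 175 on Col-0-L and 185 on Col-0-S. It was 191 in KO-02, 190 in KO-07, 196 in KO-54, 201 in KO-40 and 179 in KO-56. The 7 arrays other than KO-30 thus lay between 175 and 201, and KO-30 lay far below all of them. On the log2 scale the difference from Col-0 was -3.04 ± 0.14 (SE), an 8.20-fold lower signal plus 5, with an adjusted p of 0.000108 in limma. The difference from the other 5 lines was -3.12 ± 0.13 with an adjusted p of 3.24e-05. This fit takes its spread from the 7 remaining arrays, with 5 residual degrees of freedom, and assumes that the lone KO-30 array varies as they do. The annotation used here does not list the probe set, so its gene is not named. The next largest falls above the filter were also on unlisted probe sets. The first, 248412_at, had 1.03 in KO-30, 37.0 on Col-0-L and 27.0 on Col-0-S, a log2 difference of -2.60. KO-02 was nearly as low at 1.66. The second, 267296_at, differed by -1.89, with 5.96 in KO-30 and 5.67 in KO-40.

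No other probe set passed that test. limma called 1 of 15922 in the comparison with Col-0 (0.00628%), while 1350 had an unadjusted p under 0.05 (8.48%), of which 433 were higher and 917 lower in KO-30 (564 and 704 after quantile normalization, 666 and 592 after median centring). In the comparison with the other 5 lines it also called 1, with 2265 at an unadjusted p under 0.05 (14.2%). With trended and robust variances the count against the other lines was 50, 7 higher and 43 lower, and with a filter at the median it was 20. Separate cultures are not stated for the arrays, so the p-values reflect no more than the variation among the arrays, part of which may be technical. That spread also holds the differences between the 5 other lines.

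The largest difference in the other direction was also on a probe set that the annotation does not list, 248918_at. Its signal was 97.7 in KO-30, 25.4 on Col-0-L and 13.3 on Col-0-S. The other 5 lines had 24.3 in KO-02, 16.5 in KO-07, 20.0 in KO-54, 10.8 in KO-40 and 10.2 in KO-56. KO-30 was above all 7 other arrays, none of which passed 25.4. The log2 difference from Col-0 was 2.12 ± 0.42 (SE) and did not pass the test (limma, adjusted p = 0.446). In all, 35 of the 74 shifted probe sets above the filter were unlisted and 1 was paired with several genes, which leaves 38 with 1 gene symbol, 6 higher and 32 lower in KO-30.

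Most of the lower shifts were on dim probe sets. Of the 61, 48 had a mean Col-0 signal under 40, and 13 had 40 or more. KO-30 lay below all 7 other arrays for 54 of the 61, and above all 7 for 9 of the 13 higher ones. The rule for a shift already puts KO-30 beyond both Col-0 arrays. Such counts were not made for the other lines or over all probe sets, so they do not show shifts particular to KO-30. None of the named genes described next passed the test, so their values are given without a call.

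Among the genes with lower signal, SBT3.12 encodes a subtilase, a secreted serine protease. Its signal was 13.6 in KO-30, 34.7 on Col-0-L and 42.2 on Col-0-S. The other lines gave 45.4 in KO-02, 40.4 in KO-07, 37.1 in KO-54, 40.3 in KO-40 and 43.3 in KO-56. All 7 other arrays lay within a narrow band from 34.7 to 45.4, and KO-30 lay below it. The log2 difference was -1.22 ± 0.17 (SE) from Col-0 (limma, adjusted p = 0.326) and -1.31 ± 0.15 from the other lines (adjusted p = 0.10).

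AT4G00750 had the same pattern. Its signal was 23.3 in KO-30, against 53.5 on Col-0-L and 66.8 on Col-0-S, and it ran from 54.7 to 76.5 in the other lines, so the KO-30 array again stood apart from 7 arrays that lay together. The log2 difference from Col-0 was -1.20 ± 0.22 (limma, adjusted p = 0.446). AT5G24620 had 61.7 in KO-30, 156 on Col-0-L, 136 on Col-0-S and 107 to 169 in the other lines, a log2 difference of -1.18 ± 0.24. KO-30 was the lowest array for this gene too, with KO-54 next at 107.

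For AT4G33380, by contrast, the other lines were also below Col-0. Its signal was 134 in KO-30, 286 on Col-0-L and 359 on Col-0-S, while the other lines had 195 in KO-02, 236 in KO-07, 237 in KO-54, 135 in KO-40 and 178 in KO-56. KO-30 and KO-40 thus had nearly the same signal. The log2 difference was -1.23 from Col-0 and -0.51 ± 0.28 from the other lines.

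The remaining 11 named genes with lower signal had Col-0 signals from 9.01 to 41.0, at or below the level of the array medians or just above it. The largest difference among them was that of AT3G56300, which had 1.88 in KO-30, 17.4 on Col-0-L, 10.5 on Col-0-S and 10.9 to 16.5 in the other lines, a log2 difference of -1.44. AT1G72390, named in the gene table as PHYTOCHROME-DEPENDENT LATE-FLOWERING, had 2.17 in KO-30, 17.5 on Col-0-L and 11.5 on Col-0-S, a log2 difference of -1.43, but its signal in the other lines ran from 5.49 to 28.7. The others were AT4G32950 and AT4G19370, both at -1.42, AT2G19010 at -1.41, AT1G62860, which the table lists as a transcribed pseudogene, at -1.30, AT1G73570 at -1.24, AT3G42140 at -1.20, AT2G35390 at -1.19, AT4G37900 at -1.17 and AT2G45920 at -1.16. For AT3G42140, KO-02 with 8.36 and KO-40 with 9.28 lay nearly as low as KO-30 with 7.33, and the remaining 3 lines had 24.2 to 30.9.

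Below these 15 genes, a few further ones were brighter or differed in how the other lines behaved, and they were chosen after their values were seen. AT2G21380 had 50.6 in KO-30, 113 on Col-0-L and 106 on Col-0-S, and 109 to 133 in the other lines, a log2 difference of -1.04 ± 0.17 from Col-0 and -1.19 ± 0.15 from the other lines (limma, adjusted p = 0.10). KO-30 was far below every other array, the next of which was Col-0-S. RAPTOR2, which encodes a partner of the TOR kinase that couples growth to nutrients, had 8.39 in KO-30, 21.3 on Col-0-L and 25.7 on Col-0-S, and 4.03 in KO-56, so KO-30 was not the lowest line. TINY2, a DREB-type transcription factor, had 9.30 in KO-30 against 24.8 and 25.7 in Col-0, with 10.2 in KO-54 and 10.3 in KO-40 close to it. AT1G47400 had 9.15 in KO-30, 26.2 on Col-0-L and 22.9 on Col-0-S, and 7.29 to 13.1 in the other lines, so its lower signal was shared by all 6 lines, with a difference of -0.04 ± 0.22 between KO-30 and the others.

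The higher shifts with a gene symbol numbered 6. EXLA1, or expansin-like A1, belongs to a family related to the expansins, which loosen plant cell walls. Its signal was 650 in KO-30, 199 on Col-0-L and 349 on Col-0-S. The other lines had 210 in KO-02, 266 in KO-07, 270 in KO-54, 324 in KO-40 and 237 in KO-56. KO-30 was above all 7 other arrays, though the 2 Col-0 arrays already lay 0.79 apart on the log2 scale. The log2 difference was 1.29 ± 0.33 (SE) from Col-0 (limma, adjusted p = 0.465) and 1.31 ± 0.29 from the other lines (adjusted p = 0.139).

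AT1G50040 had 135 in KO-30 but 25.7 on Col-0-L and 78.9 on Col-0-S, and its log2 difference of 1.47 was barely larger than the 1.45 between the 2 Col-0 arrays. AT3G57930 had 100.0 in KO-30, 39.7 on Col-0-L and 53.4 on Col-0-S, with 34.6 to 64.8 in the other lines, a log2 difference of 1.04 ± 0.30. AT1G56520 had 38.1 in KO-30 against 10.4 and 18.9 in Col-0, a difference of 1.17. For these 3 genes KO-30 was the highest of the 8 arrays. It was not for AT1G12320, with 26.1 in KO-30 and 28.7 in KO-02, nor for AT1G72240, with 67.2 in KO-30 and 70.2 in KO-40. Just inside the 2-fold limit lay AT1G72240 itself at 1.00, and just outside it AT1G09575 at 0.99.

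**Figure D2:**
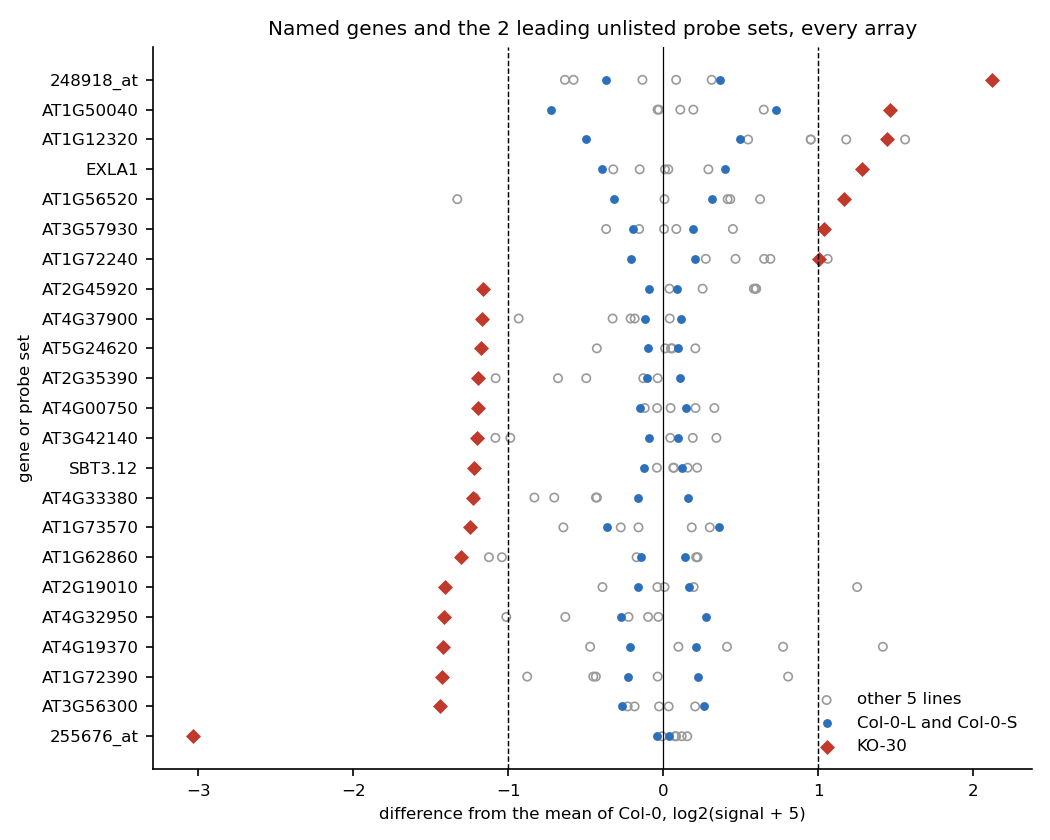
Each row is 1 of the 21 named genes or 1 of 2 unlisted probe sets, those with the largest fall and the largest rise above the filter. The x axis is the difference of an array from the Col-0 mean on the log2(signal + 5) scale. Red diamonds are KO-30, blue points the 2 Col-0 arrays and open grey points the other 5 lines. For 255676_at and SBT3.12 the 7 arrays other than KO-30 lie together near 0, whereas for AT1G12320 KO-02 lies above KO-30.

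Gene groups were described by symbol-based lists, of which 30 of 46 had at least 3 members above the filter. In these lists 2 members were shifted at least 2-fold, EXLA1 in the cell wall list and SBT3.12 in the protease list. Over all probe sets above the filter the share shifted was 0.465%. The smaller differences were therefore counted whenever KO-30 lay farther from the Col-0 mean than the 2 Col-0 arrays lay from each other, whatever the size. Over all probe sets above the filter, 22.4% were higher and 29.4% lower by that count, with a median difference of -0.03. After quantile normalization the shares were 25.4% and 25.9%, and after median centring 29.6% and 22.7%. Beyond EXLA1 and SBT3.12, the members named in what follows were chosen after their values were seen, and none passed the test.

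**Figure D3:**
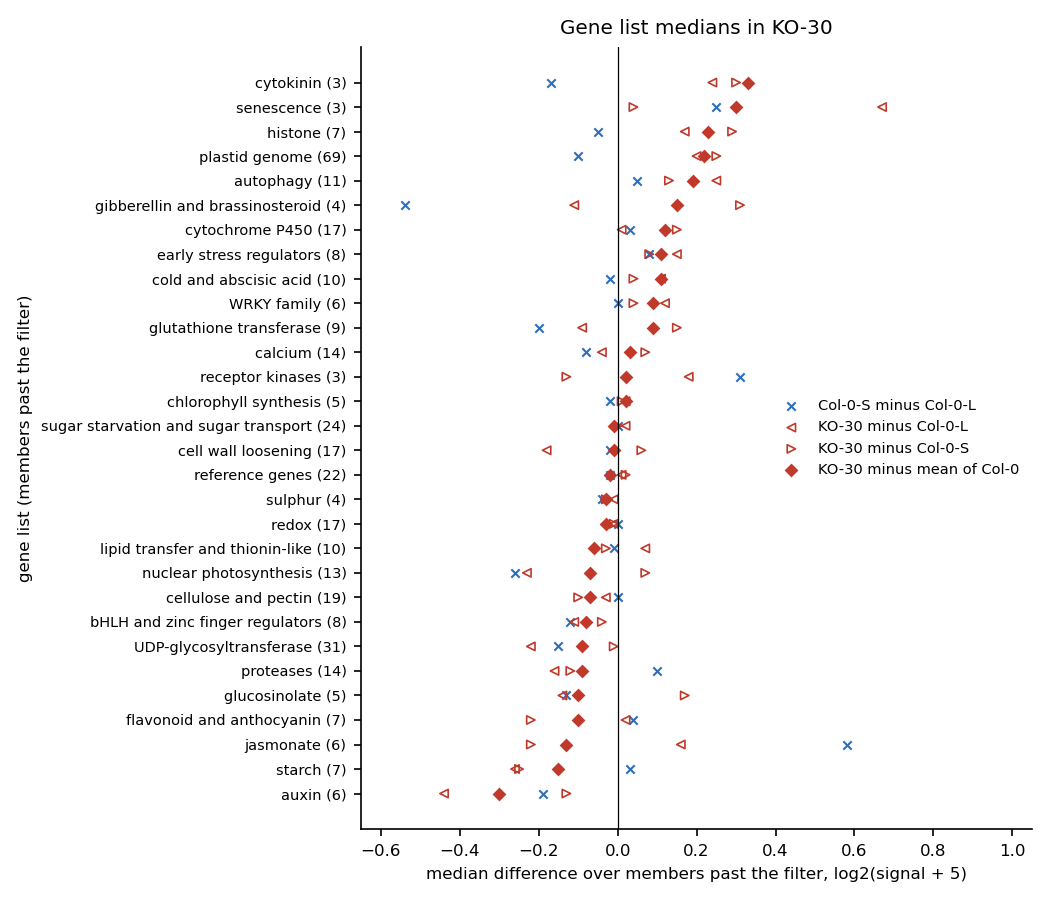
Each row is a gene list with its number of members above the filter, and the x axis is the median difference over those members on the log2(signal + 5) scale; red diamonds are KO-30 minus the Col-0 mean, open triangles KO-30 minus each Col-0 array, and blue crosses Col-0-S minus Col-0-L. The plastid genome list lies at 0.22, with 0.20 and 0.25 against the single Col-0 arrays, while for jasmonate genes the triangles lie on both sides of 0.

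Transcripts of the plastid genome were mostly higher in KO-30. This genome encodes part of the photosynthetic complexes, of the plastid's ribosomes and RNA polymerase and of the NDH complex, which returns electrons to the photosynthetic chain. All 69 measured members lay above the filter, and 56 had a positive difference. Beyond the Col-0 pair, 33 were higher and 3 lower, with a median of 0.22. After quantile normalization 39 were higher and 4 lower, and after median centring 38 and 3. The median was 0.20 against Col-0-L and 0.25 against Col-0-S, and the difference between the Col-0 arrays was -0.10 (S minus L). KO-30 was the highest of the 8 arrays for 32 of the 69 and the lowest for 4. These counts, and that of positive differences, were not made over all probe sets, so no general share stands beside them. Medians in the other lines, measured against the same Col-0 arrays, were -0.05 in KO-02, -0.03 in KO-07, -0.12 in KO-54, -0.13 in KO-40 and -0.07 in KO-56.

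Against the other 5 lines the median over the plastid genes was 0.32. An unadjusted p under 0.05 was reached by 21 of them (30.4%, against 14.2% of all probe sets), 19 of which were higher in KO-30. None passed after adjustment, and the smallest adjusted p was 0.163 in limma. Against Col-0, 8 of the 69 had an unadjusted p under 0.05, where 8.48% of all probe sets did. None of the 69 passed after adjustment there either, and the smallest adjusted p was 0.47 in limma. Many plastid genes are transcribed together, so these 69 values are not independent of each other.

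By role, the medians were highest for the RNA polymerase subunits, at 0.31 over 4 genes, and for the ribosomal proteins and the NDH complex, both at 0.27. They were lower for the genes of photosystem II at 0.08 over 15 genes and of the cytochrome b6f complex at 0.07 over 6, with 0.13 for photosystem I and 0.19 for ATP synthase. Against Col-0-L alone the photosystem II median was -0.05 and the ATP synthase median -0.09, whereas the NDH complex had 0.21 and the ribosomal proteins 0.34.

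All 10 NDH genes had a positive difference, 6 of them beyond the Col-0 pair. The largest was ndhG, which encodes a membrane subunit of the complex. Its signal was 226 in KO-30, 130 on Col-0-L and 131 on Col-0-S, and 128 in KO-02, 128 in KO-07, 72.3 in KO-54, 130 in KO-40 and 117 in KO-56. KO-30 lay above all 7 other arrays, with a log2 difference of 0.77 from Col-0 and 0.98 ± 0.28 (SE) from the other lines. Genes next to ndhG in the plastid genome had smaller values, with 0.30 for ndhE and 0.10 for ndhI.

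Of the 15 genes for ribosomal proteins, 9 were higher and 2 lower beyond the Col-0 pair. The gene rpl32 had 1560 in KO-30, 967 on Col-0-L and 1150 on Col-0-S and at most 1300 in the other lines, a log2 difference of 0.56. The opposite was seen for rpl33, which had 759 in KO-30, 1110 on Col-0-L and 1190 on Col-0-S and 965 to 1240 in the other lines, a difference of -0.59. KO-30 was the highest array for the first and the lowest for the second, so genes of 1 complex differed in opposite directions. Among photosynthesis genes, psbJ of photosystem II had 1040 in KO-30, 661 on Col-0-L and 744 on Col-0-S, and psbK of the same complex differed by -0.31. The gene psbA, for the D1 protein of photosystem II, had a difference of 0.34, and rbcL, for the large subunit of Rubisco, 0.24.

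**Figure D4:**
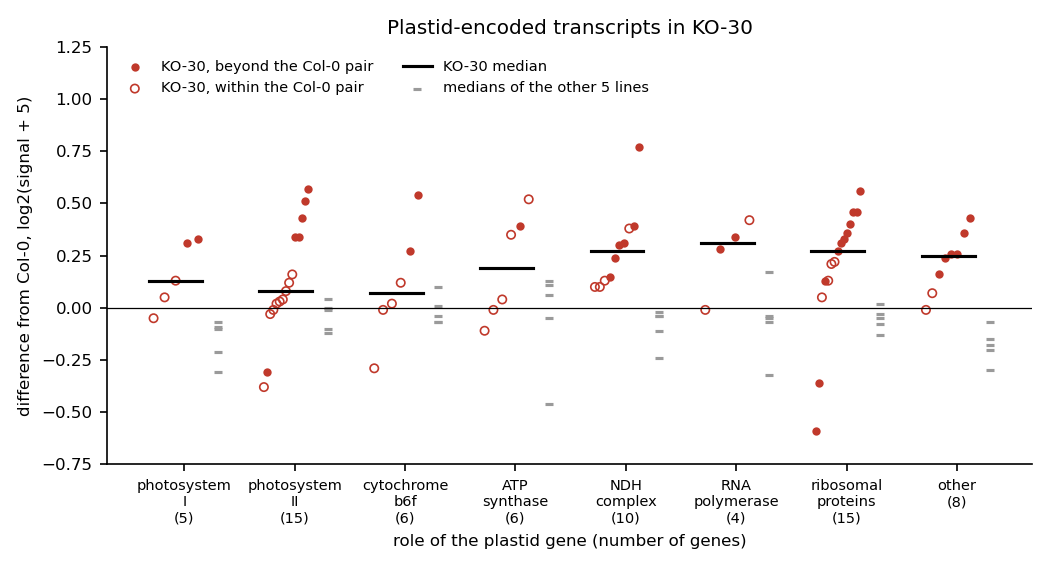
Each red point is a plastid gene, grouped on the x axis by role, with its KO-30 minus Col-0 difference on the y axis on the log2(signal + 5) scale; filled points lie beyond the Col-0 pair, black bars are the KO-30 medians and grey dashes the medians of the other 5 lines. The 10 NDH genes all lie above 0, and among the ribosomal proteins rpl33 lies at -0.59.

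Nuclear genes for photosynthesis did not share this direction. Their 13 members had a median of -0.07, with 4 lower (30.8%, against 29.4% of all probe sets) and 0 higher beyond the Col-0 pair. After quantile normalization 8 were lower, and after median centring 3, with a median of -0.01. The photosystem II gene PSBY had 2260 in KO-30, 3130 on Col-0-L and 2710 on Col-0-S, and the Rubisco activase gene RCA had 3350 in KO-30 between 4030 on Col-0-L and 3080 on Col-0-S. Against Col-0-L the list median was -0.23 and against Col-0-S 0.07, so its sign depended on the Col-0 array. The chlorophyll synthesis list had a median of 0.02 over 5 of 6 genes.

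Histone genes, whose products package DNA, were higher beyond the Col-0 pair in 5 of 7 members, with none lower and a median of 0.23. The histone H2B gene HTB1 had 149 in KO-30, 86.9 on Col-0-L and 104 on Col-0-S, and 79.5 to 106 in the other lines, and HTB4 had 530 in KO-30 against 428 and 412 in Col-0. KO-30 was the highest array for both, with log2 differences of 0.62 and 0.33. HON4, which has a linker-histone domain, differed by -0.08. The list medians in the other lines ran from -0.14 in KO-40 to 0.10 in KO-54.

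Genes of autophagy, the degradation of cell material in the vacuole, were higher beyond the Col-0 pair in 6 of 11 members, with none lower and a median of 0.19. ATG8E, for a ubiquitin-like protein that is attached to autophagosome membranes, had 296 in KO-30, 170 on Col-0-L and 202 on Col-0-S, and APG8A had 403 against 257 and 266. In KO-54, however, these genes had 299 and 459, so KO-30 was not the highest line, and the list median was 0.54 in KO-54 and 0.20 in KO-40.

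In the senescence list 3 genes were measured, with a median of 0.30 that was 0.67 without Col-0-S and 0.04 without Col-0-L. SAG101, a lipase-like protein of leaf ageing and immune signalling, had 90.5 in KO-30, 52.5 on Col-0-L and 63.5 on Col-0-S, but 120 in KO-54 and 107 in KO-40. YLS5 differed by -0.02, and SAG29 by 0.30 with Col-0 arrays 0.74 apart. Among 6 of 7 measured WRKY genes that lay above the filter, 3 were higher and 1 lower beyond the Col-0 pair, and the median was 0.09. WRKY53, a regulator of leaf senescence, had 263 in KO-30, 211 on Col-0-L and 190 on Col-0-S, and 179 to 387 in the other lines, so KO-30 lay inside their range. WRKY6 had 30.9 in KO-30, within the Col-0 pair, whose higher value was 31.2, and 31.3 to 66.1 in the other lines. Of the defence markers, the defensin PDF1.2 had 425 in KO-30, between 368 on Col-0-L and 592 on Col-0-S, whereas the other lines had 795 to 2940. KO-30 was thus the 1 line whose PDF1.2 signal lay within the Col-0 pair. The log2 difference between KO-30 and the other lines was -1.73 ± 0.57 and did not pass the test. The thionin THI2.1 had 111 in KO-30 and at most 83.0 on any other array, a difference of 0.75, while THI2.2 had 46.1, below both Col-0 arrays with 86.1 and 66.2 but inside the range of the other lines, 37.8 to 61.8.

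The cell wall loosening list had members in both directions, as did the probe sets as a whole. Of 17 members above the filter, out of 29 measured, 5 were higher and 6 lower beyond the Col-0 pair. These shares of 29.4% and 35.3% stand beside 22.4% and 29.4% of all probe sets. The list median was -0.01 (0.06 after quantile normalization or median centring). Beside EXLA1, the expansin EXPA16 had 126 in KO-30, 48.3 on Col-0-L and 87.5 on Col-0-S, a log2 difference of 0.90, and XTH19, of the enzymes that cut and rejoin xyloglucan, had 53.2 against 24.5 and 32.6, a difference of 0.80. For EXLA1, EXPA16 and XTH19 KO-30 was the highest of the 8 arrays. On the other side EXPA15 had 38.3 in KO-30 against 56.8 and 62.6 in Col-0 and EXPB3 130 against 203 and 181. These 2 were also low in the other lines, with differences between KO-30 and those lines of 0.13 and 0.03.

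Proteases were lower beyond the Col-0 pair in 7 of 14 members above the filter (21 measured) and higher in 2, with a median of -0.09 (-0.16 without Col-0-S and -0.03 after median centring). Beside SBT3.12, the related subtilase SBT3.5 had 39.7 in KO-30, 71.9 on Col-0-L and 68.3 on Col-0-S, and 64.9 to 95.0 in the other lines, a log2 difference of -0.75. KO-30 was the lowest array for both. Another subtilase, SBT1.3, had 263 in KO-30 and was higher than in Col-0 by 0.35. Starch genes were lower in 4 of 7 members (57.1%, against 29.4% of all probe sets) and higher in 1, with a median of -0.15. That median was -0.26 without Col-0-S, -0.25 without Col-0-L and -0.08 after median centring. The gene AT4G24450, of the water dikinase type, had 47.9 in KO-30, 71.2 on Col-0-L and 82.2 on Col-0-S, and SBE2.2, a starch branching enzyme, 273 against 338 and 339. UDP-glycosyltransferases, which attach sugars to small molecules, were lower in 10 of 31 members above the filter (51 measured) and higher in 3, with a median of -0.09. Their lower share of 32.3% was near the 29.4% of all probe sets, and after quantile normalization it was 25.8% against 25.9%. The median was -0.22 without Col-0-S and -0.01 without Col-0-L. UGT74D1 had 31.4 in KO-30 against 52.8 and 52.4 in Col-0. Cytochrome P450 genes had 7 of 17 above the filter higher and 5 lower (29 measured, median 0.12). Their lower share of 29.4% equalled that of all probe sets, and their higher share was 41.2% against 22.4%. The auxin list, with 6 of 16 members above the filter, had 2 lower and 1 higher. These shares of 33.3% and 16.7% stand beside 29.4% and 22.4% of all probe sets. The auxin median was -0.30, with -0.44 without Col-0-S and -0.13 without Col-0-L. The P450 median was 0.01 without Col-0-S. The reference list of housekeeping genes had a median of -0.02 over 22 members, 0.02 after quantile normalization and 0.05 after median centring.

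RNA quality and gene length were measured beside these groups. For the actin control, the signal of the 3' probe set over that of the 5' probe set, a ratio that grows as RNA is degraded from the 5' side, was 15.4 in KO-30, 9.98 on Col-0-L and 10.9 on Col-0-S, with 29.5 in KO-54 and 8.41 to 12.0 in the other 4 lines. The GAPDH ratio was 1.62 in KO-30, 1.23 on Col-0-L, 1.41 on Col-0-S, 2.46 in KO-54 and 1.21 to 1.44 in the other 4 lines. A second actin probe pair gave 2.35 in KO-30, 2.0 on Col-0-L and 1.83 on Col-0-S. It gave 3.72 in KO-54 and 1.7 to 2.03 in the other 4 lines. The ubiquitin ratio of KO-30, 2.49, lay between the Col-0 arrays with 2.68 and 2.41. Nuclear genes with a known length, taken as the span of the gene in the TAIR10.1 gene table, were split into 4 length classes of equal size. The median difference in KO-30 was 0.04 in the shortest class (up to 1704 bases), 0.00 and -0.03 in the next, and -0.12 in the longest (from 3269 bases). It was -0.14 against Col-0-L and -0.11 against Col-0-S in the longest class. In the other lines the class medians ran from -0.04 to 0.06, and KO-54 had 0.01 in the longest class.

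Gene length differed among the groups described. Median length was 555 bases for the plastid genes, of which 60 of 69 were no longer than the shortest class of nuclear genes, 1109 for the histones, 1798 for the autophagy genes, 3111.5 for the proteases and 4186 for the starch genes. It was 923.5 for the jasmonate genes, whose median difference was -0.13 (0.16 against Col-0-L and -0.22 against Col-0-S). For the 3 senescence genes, with 0.30 (0.67 against Col-0-L and 0.04 against Col-0-S), it was 2484. Over all probe sets with a length it was 2331. The plastid median of 0.22 and the histone median of 0.23 stand beside 0.04 for the shortest class, which runs up to 1704 bases and is not matched to them in length. The part of length and RNA quality in these differences was not tested.

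**Figure D5:**
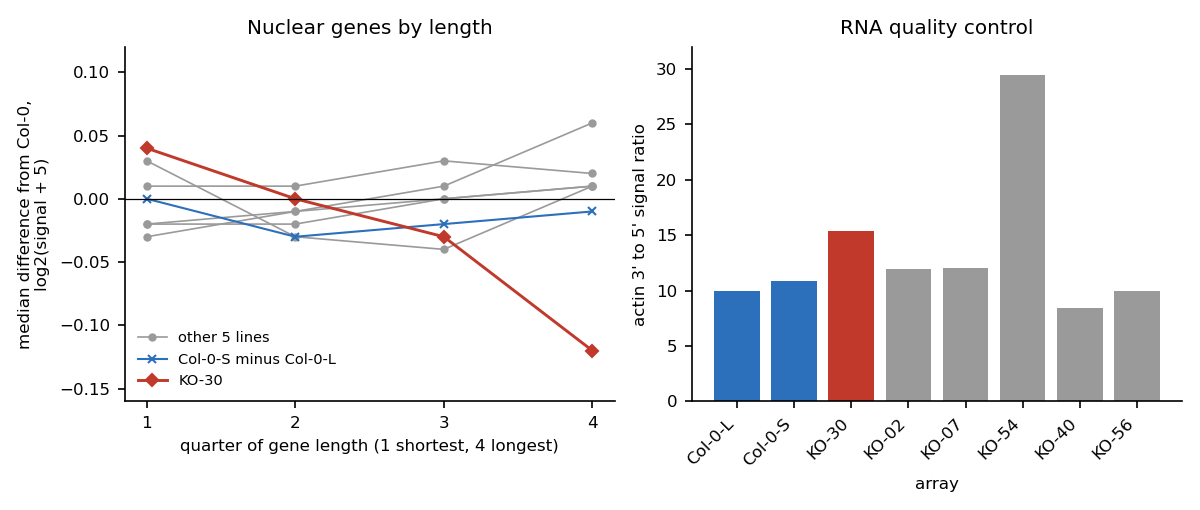
The left panel plots the median difference from Col-0 on the log2(signal + 5) scale against the gene length class, in red for KO-30, in grey for the other 5 lines and in blue for Col-0-S minus Col-0-L; the right panel shows the actin 3' to 5' signal ratio of each array as bars. KO-30 reaches -0.12 in the longest class, and its actin ratio of 15.4 is exceeded by that of KO-54, 29.5.

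Few markers of the tissue could be read. Of 19 rosette leaf markers 2 had a named probe set, RCA and the light-harvesting gene LHCB4.1, with a summed signal of 6950 in KO-30, 7040 to 8770 in Col-0 and 6150 to 7340 in the other lines. Of 10 root markers only PYK10 was measured, at 37.3 in KO-30, 42.3 to 58.4 in Col-0 and 19.9 to 42.0 in the other lines. No flower, pollen, seed or lignified stem marker had a named probe set, so carry-over of those tissues was not tested.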

How the data were processed

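Total RNA was labelled with biotin and hybridised to ATH1 arrays, per the labels. The authors deposited 1 linear intensity per probe set, computed with MAS5 per the submitters' processing notes; no source used here names its version. The mean without the lowest and highest 2% was equal on all 8 arrays, so the authors' scaling was kept. Of 22810 probe sets, 64 controls were removed. Before taking log2, 5 was added to each signal (the pseudocount, near the 20th percentile), and the filter kept probe sets whose mean log2 value lay above the 30th percentile. The platform annotation gave 1 symbol to 13513 probe sets and several to 503 and did not list 8730; symbols and lengths came from a TAIR10.1 gene table, which held 13436. Probe sets of 1 gene were kept apart. Arrays were matched by column name, and 0 columns lacked a sample.

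KO-30 minus the mean of Col-0 was computed as a description. Two-sided tests came from limma's lmFit and eBayes (version 3.58.1, R 4.3.3), adjusted after Benjamini and Hochberg over 15922 probe sets, on 3 levels: KO-30, Col-0 and the other 5 lines. On simulated data with independent noise, 96% of 2-fold and 100% of 4-fold changes were recovered with 7 false calls among 15922 probe sets. The simulated noise had the same spread for every probe set and no differences between lines, unlike the real arrays. These shares therefore do not give the power of the real test. Named genes were the 15 largest shifts per direction above the filter with 1 symbol, and up to 6 shifted members per list and direction. The line, the lists and these rules were chosen with earlier results of these data known. The planned search for promoter motifs was not run, since promoter sequences were not used here. The alternatives tried were other pseudocounts, filters, fold limits and scalings, other variance settings, and leaving out arrays; the number of arrays limits the precision.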

Additional observations from a re-analysis of the deposited data

Results flagged for a closer look

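Probe set 255676_at differed between lines under the same contrast with Col-0: its log2 difference in KO-30 minus that in the other 5 lines was -3.12 ± 0.13 (SE; limma, adjusted p = 3.24e-05), with lower signal in KO-30 than on 7 of 7 other arrays. Over the 14 alternatives run, its highest adjusted p was 0.000408 against the other lines and 0.00297 against Col-0, and its difference from Col-0 ran from -2.38 to -3.29.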

How the results depend on the processing

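Counts of shifted probe sets changed with the pseudocount, the filter and the fold limit. The count for the Col-0 pair sets 1 array against another under the fold limit alone. The KO-30 counts beside it use the Col-0 mean and also require a distance beyond the pair, so the sizes of these counts cannot be compared directly. Higher in KO-30, lower in KO-30 and apart in the Col-0 pair, the counts were 504, 864 and 2340 with a pseudocount of 1 and 5, 5 and 18 with one of 21. They were 13, 61 and 128 above the 30th percentile and 7, 11 and 26 above the median. At 1.5-fold they were 628, 1104 and 2612, and at 3-fold 2, 9 and 50. Quantile normalization gave 120 higher. With each Col-0 array in turn left out, 126 to 237 were higher and 269 to 405 lower. Under quantile normalization the plastid median was 0.18 and the median of the longest gene class -0.08, under median centring 0.28 and -0.06, and with a pseudocount of 21 the latter was -0.10. Leaving out a Col-0 array gave 0.20 to 0.25 and -0.14 to -0.11. limma called 2 probe sets against Col-0 and 2 against the other lines without the filter, and 20 and 50 against the other lines with the median filter and with trended and robust variances. Every fit that left out an array called 1, in both comparisons. Of 140 values tried for 22 named items, 0 changed direction. These items were selected with KO-30 beyond both Col-0 arrays, so only a change of scaling could have reversed a direction. Of the 13 lists beside the plastid genome with a median of at least 0.1 in size, those for flavonoids, jasmonate, and gibberellin and brassinosteroid changed sign without Col-0-S, and that for glucosinolates without Col-0-L. The cause was not tested. No paired analysis was possible because the groups compared share fewer than 2 replicate numbers. Signal close to background limits the dim probe sets.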
